A study of Mus musculus with 35 samples.

Results

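The 500 regions described here had a higher ATAC-seq signal in every treatment that contained Forskolin than in every treatment without it. They were chosen from the 35931 regions on chromosomes 1 to 19 of a merged ATAC-seq table that holds 36431 regions in all, and they are 1.39% of the 35931. ATAC-seq counts the places where a transposase can cut, so its signal is read as open chromatin. The cells were mouse embryonic fibroblasts (MEFs) on day 4 of chemical treatment, and each treatment is named by the letters of its chemicals. C is CHIR99021, an inhibitor of the kinase GSK3. The digit 6 stands for an inhibitor of the TGF-beta receptor kinase ALK5, F for Forskolin, A for AM580, an agonist of the retinoic acid receptor, and E for EPZ004777, an inhibitor of the histone methyltransferase DOT1L. With Forskolin there were 6FAE, CFAE and C6FAE, the last being the cocktail of the CaMP state. Without it there were AE, Basal, C6AE and the control Ctr. C6FAE and C6AE differ by Forskolin alone, 6FAE lacks CHIR99021, and CFAE lacks the ALK5 inhibitor. All treatments with Forskolin also held A and E. What Basal and Ctr contained is not given in the sources used here.

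Forskolin activates adenylyl cyclase, the enzyme that makes cyclic AMP. Cyclic AMP activates protein kinase A, which phosphorylates the transcription factor CREB and its relatives at promoters and enhancers. Regions of open chromatin are either promoters, which in active or poised genes carry H3K4me3, or distal elements such as enhancers, which mostly lack it. H3K27me3 is the mark of Polycomb repression and covers many developmental genes in fibroblasts.

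The score of a region was its lowest value among 6FAE, CFAE and C6FAE minus its highest value among AE, Basal, C6AE and Ctr. Values were log2(RPKM + 1), where RPKM is the number of reads divided by region length and sequencing depth, and the median of the table was subtracted from each column. The 500 rows of highest score had scores from 1.45 down to 0.34, with a median of 0.49, while the median score of all 35931 regions was -0.67. A score above 0 was held by 2179 regions, and 17 members had a score of at least 1. Every ATAC-seq column went into this choice. The ATAC-seq values below therefore describe what was chosen and carry no test.

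Each ATAC-seq treatment had 2 libraries, merged into 1 column of the table, so the RPKM values carry no replicate error. The 14 libraries held 3346418 to 8764791 tags. Library 1 of 6FAE stood apart from the other Forskolin libraries with 1027 enriched peaks (-log10 q of at least 1.3 as listed) against 5567 to 15909, and its weight in the merged column is not known. The 8 libraries without Forskolin held 810 to 7313 enriched peaks, and the part of this difference in the choice of members was not tested. Library 2 of C6AE had the fewest tags (3346418) and the fewest enriched peaks (810) of the 14 libraries. A listed peak in it lay in 66.1% of all regions, also the lowest share, and its weight in the merged column is not known. H3K4me3 and H3K27me3 had 1 library per treatment, and a pair of them was shallow, C6AE of H3K4me3 with 745089 tags and 6FAE of H3K27me3 with 633980. Titles and treatment labels disagree for 3 ChIP-seq samples, which entered no comparison. Positions are those of mm9 and were not assigned to genes here, and no region was checked against fibroblast markers.

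With Forskolin the members reached ordinary levels of openness rather than extreme ones. Their median RPKM was 15.8 in 6FAE, 20.7 in CFAE and 22.7 in C6FAE. Without Forskolin it was lower, at 5.02 in Ctr, 6.91 in AE, 6.54 in Basal and 6.89 in C6AE. Among all 35931 regions the median member stood at percentile 60.1 in 6FAE, 61.1 in CFAE and 72.9 in C6FAE. In the other 4 columns it stood between percentile 10.3 (Basal) and 15.5 (C6AE). The median of all regions was 14.3 RPKM in 6FAE, 18.5 in CFAE, 17.7 in C6FAE, 11.6 in Ctr, 12.2 in C6AE, 14.6 in Basal and 16.4 in AE. The members were thus near or above the middle of the table in the Forskolin columns and among its weaker rows in the others. In bulk samples, opening in more cells and wider opening in each cell cannot be told apart.

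**Figure D1:**
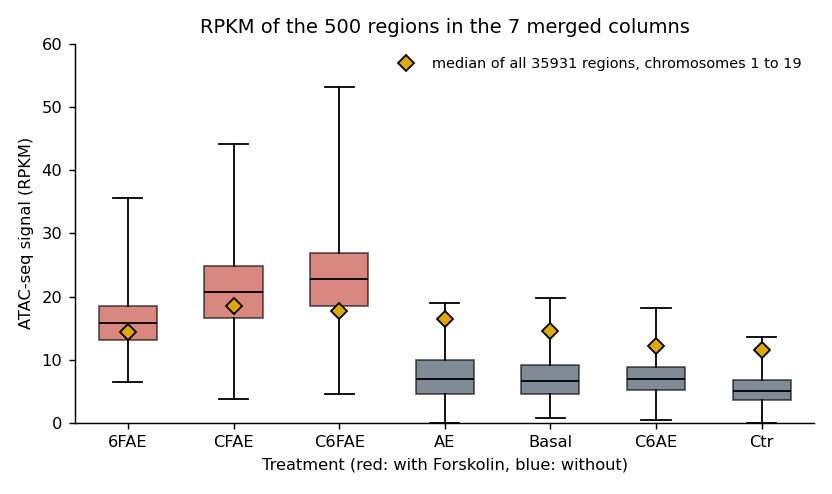
ATAC-seq signal in RPKM (vertical axis) of the 500 regions in each merged treatment column (horizontal axis). Boxes span the quartiles with the median as a line, whiskers run from the lowest to the highest region, and diamonds mark the median of all 35931 regions, which lies inside the box in 6FAE and CFAE, just below it in C6FAE and above it in the 4 columns without Forskolin.

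Few members were near 0 without Forskolin. An RPKM below 1 was found for 9 members in Ctr, 6 in AE and 2 each in Basal and C6AE. The mean RPKM of the 3 Forskolin columns was a median of 3.01 times that of the 4 others (quartiles 2.51 and 3.69). This ratio of means was at least 2 in 485 members and at least 4 in 90. The strictest ratio was the lowest Forskolin column over the highest other column. It ranged from 1.13 to 3.76 with a median of 1.69, and 112 members had at least 2. Both ratios use the columns that chose the members. The shares of all regions past these limits, or with an RPKM below 1, were not counted. A stricter description was above the median in all 3 Forskolin columns and below the lower quartile in all 4 others. It was met by 48 members and by 0.134% of the 35931 regions, the same 48 regions. On the centred scale the column medians are near 0 and those lower quartiles ran from -0.63 to -0.46. A region meeting the description must therefore score above the threshold of 0.34, so the choice fixed this match. Above the median in all 3 columns were 247 members (and 30% of all regions), and below the lower quartile in all 4 were 279 (and 4.81% of all regions).

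The Forskolin columns were not alike. On the centred scale C6FAE was the highest of the 3 in 281 members, CFAE in 121 and 6FAE in 98. C6FAE exceeded 6FAE by a median of 0.19 and CFAE by a median of 0.17 on the centred log2 scale, where the medians of all regions were -0.006 and 0.01. The difference reached 1 (2-fold) in 18 (3.60%) and 12 (2.40%) members, against 3.58% and 4.28% of all regions, so these shares were near or below the background. Lowest of the 3 was 6FAE in 222 members, CFAE in 184 and C6FAE in 94. How often each column was highest or lowest over all regions was not counted.

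Among the columns without Forskolin, C6AE was the closest to the Forskolin columns after centring, but not as deposited, where the members' median RPKM was 6.91 in AE and 6.89 in C6AE. On the centred scale C6AE was the highest of the 4 in 230 members, Ctr in 100, Basal in 98 and AE in 72, and this was not counted over all regions. C6AE exceeded Ctr by a median of 0.26 in the members, where the median of all regions was -0.03, and 64 members (12.8%) were at least 2-fold higher in C6AE than in Ctr, against 9.79% of the 35931 regions. AE and Basal differed from Ctr by medians of -0.07 and 0.01 after centring. As deposited, AE, Basal and C6AE exceeded Ctr by similar medians of 0.40, 0.32 and 0.33. C6FAE exceeded C6AE, the treatment that differs by Forskolin alone, by a median of 1.03, and by at least 2-fold in 261 members, against 5.88% of the 35931 regions. As deposited, without centring, this median was 1.54, and the median over all regions was 0.49.

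The 10 members of highest score showed the pattern most fully. Their RPKM lay between 12.3 and 35.9 in the Forskolin columns and between 0.35 and 7.36 in the others. Within each region the columns with and without Forskolin did not overlap, but this held for all 500 members. On the centred scale the choice requires it. The highest score belonged to chr2:52905863-52906588, a region of 726 bp. Its RPKM was 15.0 in 6FAE, 25.5 in CFAE and 26.2 in C6FAE, and 0.81 in AE, 1.68 in Ctr, 3.54 in C6AE and 4.93 in Basal. Its lowest Forskolin column was 3.04 times its highest other column, which was Basal.

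The next in order was chr14:98922067-98922984, of 918 bp. Its RPKM was 13.4 in 6FAE, 18.6 in CFAE and 21.6 in C6FAE, and 3.33, 2.03, 2.63 and 3.56 in AE, Basal, C6AE and Ctr. This region had the largest ratio of the lowest Forskolin column to the highest other column among the 500, 3.76. At chr19:33305238-33306019 C6FAE stood well above the other Forskolin columns, with 35.9 RPKM against 12.9 in 6FAE and 14.7 in CFAE. The 4 columns without Forskolin were between 2.20 and 3.62 there. At chr4:54215428-54216200 the Forskolin columns were close to each other, with 12.3, 15.7 and 15.7 RPKM in 6FAE, CFAE and C6FAE. There Ctr was lowest with 0.35 RPKM, and AE, Basal and C6AE had 3.12, 3.88 and 3.51.

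The fifth, chr14:13770973-13771674, was highest in CFAE, with 31.8 RPKM beside 16.7 in 6FAE and 27.6 in C6FAE. The other columns had 2.27 in Ctr, 3.34 in C6AE, 5.08 in AE and 6.25 in Basal. The sixth, chr18:21933086-21933777, had 12.3 RPKM in 6FAE and 30.2 and 35.9 in CFAE and C6FAE. These examples differ in which Forskolin column was highest. In deposited RPKM 6FAE was the lowest of the 3 in 9 of the 10, but after centring it was lowest in 5 and CFAE in 5. At chr10:4923240-4923854 CFAE had 12.4 RPKM, 6FAE 15.2 and C6FAE 19.4.

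The longest of the 10 was chr2:102572417-102574741, of 2325 bp, with 13.1, 19.3 and 28.9 RPKM in 6FAE, CFAE and C6FAE and 3.29 to 4.08 in the others. At chr18:23846355-23847084 the Forskolin columns were almost equal, with 23.4, 23.6 and 23.8 RPKM. The last, chr2:44659953-44660693, had 18.5, 18.8 and 21.4 RPKM with Forskolin and 3.48, 3.53, 5.19 and 4.58 in AE, Basal, C6AE and Ctr. None of the 10 overlapped a region of either histone mark, as the nearest H3K4me3 region lay 61.9 to 467 kb away and the nearest H3K27me3 region 12.9 to 501 kb away.

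**Figure D2:**
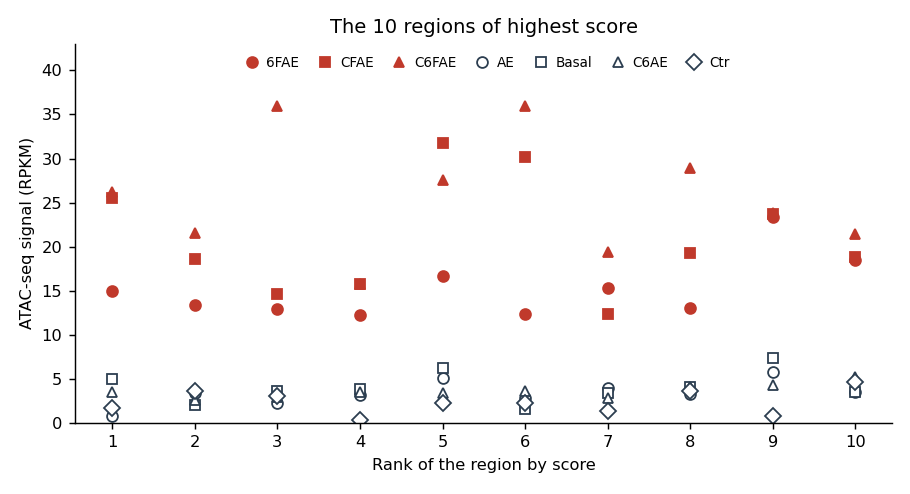
ATAC-seq signal in RPKM (vertical axis) of the 10 regions of highest score, in order of rank (horizontal axis), with 1 symbol per merged treatment column. Filled red symbols (with Forskolin) lie at 12.3 RPKM or more and open blue symbols (without) at 7.36 RPKM or less.

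The members at the threshold showed how small the difference became. The last region chosen, chr14:118422886-118423629, had 17.5, 22.1 and 24.7 RPKM in 6FAE, CFAE and C6FAE and 9.01, 8.27, 11.3 and 1.26 in AE, Basal, C6AE and Ctr, and a score of 0.3416. The first region left out, chr14:20803213-20806499, had 23.0, 28.6 and 27.9 RPKM with Forskolin and 16.0, 17.6, 14.3 and 10.4 in AE, Basal, C6AE and Ctr, and a score of 0.3413. The last 5 regions inside were 646 to 4085 bp long, with a lowest Forskolin column 1.47 to 1.96 times the highest other column. In the first 5 outside this ratio was 1.12 to 1.51. The threshold thus fell within a continuous run of scores.

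Members were shorter than the table as a whole, but so were sets chosen by like scores. The members' median length was 1102 bp (quartiles 746 and 1813 bp), and that of all 35931 regions 1484 bp (846 and 2700 bp). It was 1008 bp in 500 regions chosen by the opposite score (lower in every Forskolin column). In 500 regions chosen in the same way for CHIR99021 it was 1181 bp. A gap of at most 50000 bp joined 18 members, as 9 pairs, and this was not counted for other sets of regions. By chromosome, between 0.722% (chromosome 8) and 2.23% (chromosome 14) of the regions were members. The 126 members shorter than 750 bp had a median ratio of mean RPKM with to without Forskolin of 3.40. In the 105 members of at least 2000 bp this median was 2.52.

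The peak lists give each library alone, although the same reads went into the merged columns, so they show how evenly the libraries carried the choice. All listed peaks have a p-value under 0.05, a permissive threshold. By that measure 348 members held a peak in library 1 of 6FAE and 497 in library 2. In CFAE 494 and 451 members held a peak in libraries 1 and 2, and in C6FAE 488 and 490. Without Forskolin a peak was listed in 289 and 320 members in AE, 190 and 243 in Ctr, 184 and 221 in Basal, and 420 and 105 in C6AE. The lowest Forskolin library was therefore below the highest library without Forskolin, which was library 1 of C6AE. Of all regions, 82.4% to 94.3% held a listed peak in the Forskolin libraries and 66.1% to 91.4% in the others. The share of members was below that of all regions in library 1 of 6FAE (69.6% against 82.4%) and in every library without Forskolin. In library 1 of C6AE it was 84.0% against 91.4%. In the other Forskolin libraries it was above.

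In all 6 Forskolin libraries a peak was listed for 315 members (63.0%), against 65.9% of all regions, so that measure did not set the members apart. In none of the 8 others was one listed for 15 members (3.00%), against 0.237% of all regions. No member met both at once, and neither did any of the 35931 regions. Of the 145 members that lacked a peak in exactly 1 Forskolin library, that library was 6FAE library 1 in 115. Without it, 5 members had a peak in the other 5 Forskolin libraries and in none of the 8.

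The 20000 peaks of highest -log10 p in each library give a stricter measure at an equal number of peaks. With Forskolin, such a peak lay in 24 and 322 members in 6FAE, 250 and 188 in CFAE, and 301 and 185 in C6FAE. Without it there were 13 and 24 in AE, 11 and 10 in Ctr, 17 and 19 in Basal, and 57 and 6 in C6AE. Library 1 of 6FAE was at the level of the libraries without Forskolin, and the other 5 Forskolin libraries were above all 8 of them.

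Set against all regions of the same library, the share of members with such a peak was 0.23 times the share of all regions in library 1 of 6FAE and 0.83 to 1.38 times in the other 5 Forskolin libraries. In the libraries without Forskolin it was 0.06 to 0.36 times, with the highest value again in library 1 of C6AE. Library 1 of 6FAE thus lay inside the range of the libraries without Forskolin on this scale too. Both libraries of a treatment held such a peak in 134 members for C6FAE and in 107 for CFAE, while 28.2% and 29.4% of all regions did, so the members were not above the table on this measure. For 6FAE this held in 18 members, against 16.0% of all regions. It held in 4 for Basal and 3 for AE, against 24.1% and 23.7% of all regions. For C6AE and Ctr it held in 0, against 12.8% and 15.3%.

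**Figure D3:**
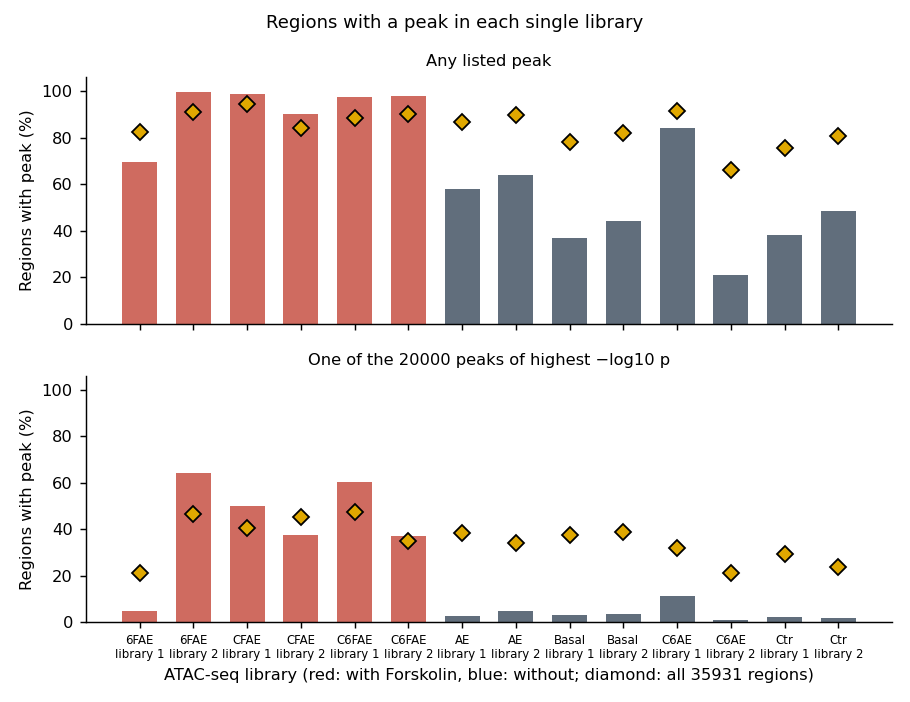
Share of regions with a peak (percent, vertical axis) in each of the 14 ATAC-seq libraries (horizontal axis), for any listed peak (upper panel) and for the 20000 peaks of highest -log10 p (lower panel). Bars are the 500 members, red with and blue without Forskolin, and diamonds are all 35931 regions; in the lower panel 5 of the 6 red bars stand at 37.0% to 64.4%, and library 1 of 6FAE (4.80%) stands among the blue bars (1.20% to 11.4%).

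At least 1 library of each Forskolin treatment and none of the 8 others held such a peak in 104 members (20.8%), against 1.78% of all regions. This count was 7 without library 2 of 6FAE, 57 without library 1 of CFAE and 58 without library 1 of C6FAE, and 84 to 129 without any other library. The fold enrichment of the highest peak in every Forskolin library exceeded that in every other library in 20 members (4.00%), against 0.225% of all regions. Without library 1 of 6FAE this held in 164 members (32.8%), and in 2.57% of all regions, and it held in 32 members without library 1 of AE or library 1 of C6AE.

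At the region of highest score, the fold enrichment over the modelled background was 3.24 in library 2 of 6FAE, 2.72 and 2.96 in CFAE, and 4.13 and 2.20 in C6FAE. No peak was listed there in library 1 of 6FAE, and of the 8 others only library 1 of C6AE listed one, at 1.90. Of the 10 members of highest score, library 1 of 6FAE listed a peak in 2 and library 1 of C6AE in 5. Library 1 of C6AE thus listed a peak at more of these regions than library 1 of 6FAE did.

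Most members lay outside H3K4me3. An H3K4me3 region overlapped 16 members (3.20%) and 30.9% of all regions. The median distance to the nearest H3K4me3 region was 79.9 kb, against 21.1 kb for all regions, and 184 members (36.8%) lay within 50000 bp of one, against 65.1% of all regions. In the 500 regions chosen by the opposite score, lower in every Forskolin column, 34 (6.80%) overlapped H3K4me3. In 500 regions chosen in the same way for CHIR99021 the count was 73 (14.6%). Within 50000 bp of an H3K4me3 region lay 54.4% of the opposite set and 48.2% of the CHIR99021 set. No test was made between these sets.

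An H3K27me3 region overlapped 29 members (5.80%) and 9.38% of all regions, 18 regions (3.60%) of the opposite set and 61 (12.2%) of the CHIR99021 set. Both marks overlapped 6 members (1.20%), against 4.20% of all regions. Neither mark overlapped 461 (92.2%), against 64.0% of all regions, and it was similar in the opposite set (450 of 500) and lower in the CHIR99021 set (396 of 500). The 16 members on H3K4me3 had higher values without Forskolin than those on neither mark. The median over them of the mean RPKM without Forskolin was 10.3, and the median ratio with to without was 2.27. In the 461 members on neither mark these medians were 6.24 and 3.08.

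**Figure D4:**
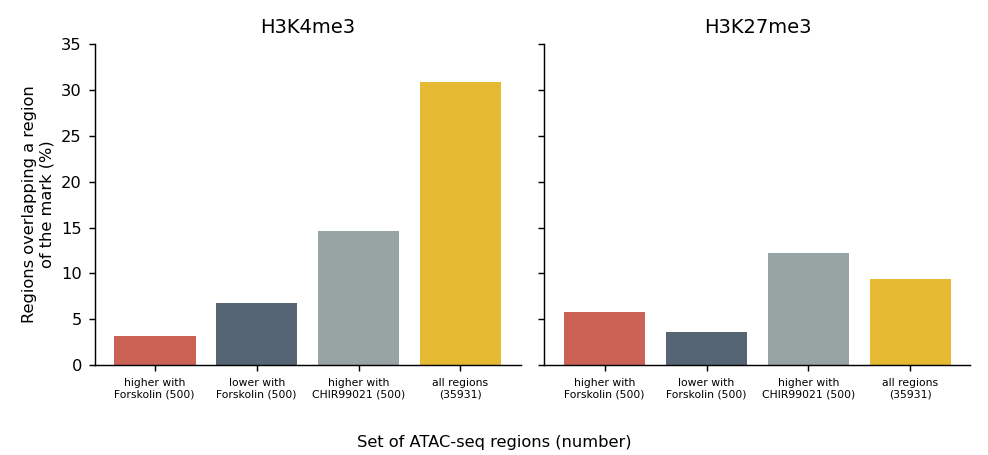
Share of ATAC-seq regions (percent, vertical axis) that overlap an H3K4me3 region (left) or an H3K27me3 region (right) by at least 1 bp, for 4 sets of regions (horizontal axis, with their numbers). The members overlap H3K4me3 in 3.20% of cases, against 30.9% of all regions, and H3K27me3 in 5.80%, against 9.38%.

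In the peak lists of single ChIP-seq libraries the members were also mostly outside H3K4me3. Among the 20000 strongest H3K4me3 peaks, members held 18, 24 and 23 in 6FAE, CFAE and C6FAE and 23, 26 and 24 in AE, Basal and C6AE, where 31.8% to 35.5% of all regions held one. The H3K4me3 libraries with and without Forskolin thus gave overlapping counts. For H3K27me3 the counts were 11, 11 and 25 with Forskolin and 22, 17 and 18 in AE, Basal and C6AE. These overlapped as well. In C6FAE the 25 members of 500 were near the 5.30% of all regions, and in each of the other 5 libraries the share of members (2.20% to 4.40%) was below that of all regions (3.29% to 9.37%).

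The histone marks did not enter the score, so their difference with and without Forskolin could be tested, with 6FAE, CFAE and C6FAE against AE, Basal and C6AE. The units were treatments with 1 library each, so the spread within a group includes the effect of the other chemicals. The difference between the groups includes it too. Every treatment with Forskolin held CHIR99021, the ALK5 inhibitor or both, while AE held neither, and what Basal held is not given. In this contrast Forskolin cannot be told apart from those chemicals. With limma on centred log2(RPKM + 1), no H3K4me3 region of 11937 passed an adjusted p of 0.05 in either direction (0% of the table), and 353 (2.96%) were higher and 553 (4.63%) lower at an unadjusted p under 0.05. With an intensity trend in limma the adjusted counts were also 0. As deposited, without centring, the median over all regions was shifted by -0.64, and 1 region was called higher and 4397 lower.

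Of the H3K4me3 regions that overlap a member, 15 were tested, and 0 passed at an adjusted or an unadjusted p of 0.05. Their differences ran from -0.36 to 0.77 with a median of -0.07, and 7 were above 0. The smallest limma p was at chr18:61882403-61889543, named after its values were seen. Its RPKM was 14.4 in 6FAE, 23.6 in CFAE and 17.6 in C6FAE, and 19.5 in Basal, 21.6 in AE and 30.5 in C6AE. The deposited mean was higher without Forskolin, while the centred difference was 0.29 (SE 0.13, limma adjusted p = 0.66). As deposited, 6 of the 15 were called lower, where 4397 of all 11937 regions were. Their median was -0.71 beside the shift of -0.64 over all regions. The unadjusted count with centring depended on the treatments in the fit. Without C6AE, whose library was shallow, 3 of the 15 were higher and 0 lower at an unadjusted limma p under 0.05. The median difference was then 0.11, and 497 of all 11937 regions were higher and 723 lower. Without 6FAE, 3 of the 15 were higher and 0 lower, where 296 of all regions were higher and 472 lower.

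No H3K27me3 region of 18262 passed an adjusted p of 0.05 in limma in either direction (0% of the table), and 1162 (6.36%) were higher and 295 (1.62%) lower at an unadjusted p under 0.05. With an intensity trend 1 region was called higher. As deposited, the median over all regions was shifted by -0.59, and no region passed. The balance at an unadjusted p turned with the scaling, with 197 higher and 5059 lower as deposited and 911 and 798 after quantile normalization. The H3K27me3 libraries with Forskolin held 74 to 136 enriched peaks and those without it 4115 to 17766, and the part of this in the result was not tested. Of the 27 tested regions that overlap a member, 0 passed the adjusted p and 2 were higher and 0 lower at an unadjusted p under 0.05, which as deposited became 0 higher and 8 lower. Their differences ran from -0.48 to 1.91 with a median of -0.003, and 13 were above 0. Without 6FAE, 7 of the 27 were higher and 0 lower at an unadjusted limma p under 0.05, with centring. Over all 18262 regions 1604 were then higher and 283 lower. Without AE, or without Basal, 0 of the 27 were higher and 0 lower.

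With all treatments in the fit, the smallest limma p for H3K27me3 at a member belonged to chr2:134038007-134039629, named here after its values were seen. Its H3K27me3 RPKM was 3.32 in 6FAE, 1.54 in CFAE and 5.57 in C6FAE, and 1.46 in Basal, 1.304 in AE and 2.17 in C6AE. In RPKM the groups overlapped, since CFAE was below C6AE, but after centring they did not, with -0.56 in CFAE and -0.96 in C6AE. The centred difference was 1.23 (SE 0.41, limma adjusted p = 0.61). The largest difference, 1.91, was at chr14:110478037-110478668, also named after its values were seen. It came from 12.2 RPKM in 6FAE, the shallowest library of this mark, while the other 5 treatments had 0 to 0.67 RPKM.

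Between C6FAE and C6AE alone, with 1 library each and no test, the scaling changed the size of the H3K4me3 difference and the direction of the H3K27me3 difference. In H3K4me3 the median difference over the 15 regions was -0.17 after centring, with 5 regions above 0, and -1.22 as deposited, with 0 above 0. In H3K27me3 the median over the 27 regions was 0.27 after centring, with 22 above 0, and turned to -0.56 as deposited, with 5 above 0. Within 50000 bp of a member, 260 regions were tested for H3K4me3 and 412 for H3K27me3. Of these, 0 passed the adjusted p in limma after centring. As deposited 71 of the 260 were called lower for H3K4me3, where 4397 of all 11937 were, and 0 of the 412 for H3K27me3. At an unadjusted limma p under 0.05 and with centring, 11 were higher and 11 lower for H3K4me3, where 2.96% and 4.63% of all regions were. For H3K27me3, 24 were higher and 5 lower, where 6.36% and 1.62% of all regions were.

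**Figure D5:**
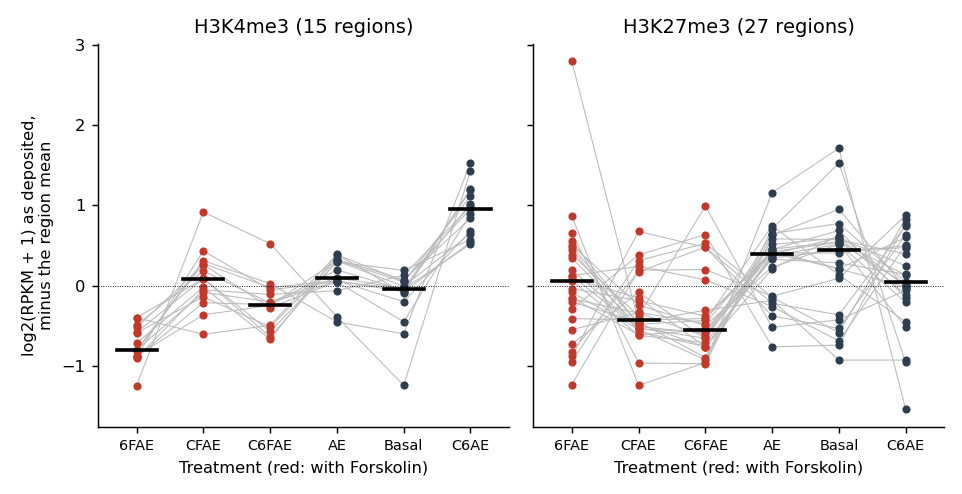
Log2(RPKM + 1) as deposited, minus the mean of the region over the 6 treatments (vertical axis), in each treatment (horizontal axis), for the 15 H3K4me3 regions and the 27 H3K27me3 regions that overlap a member and were tested. Points are regions joined by lines, and bars are medians; H3K4me3 is highest in C6AE, whose library held 745089 tags, and lowest in 6FAE in most regions.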

How the data were processed

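The members and lists were chosen with earlier results of these data known. Samples were grouped by the treatment in their labels. Processing notes name Bowtie2, MACS2, deepTools 3.1.0 and the build mm9. The authors deposited RPKM per region, made from binned coverage, for ATAC-seq (merged over 2 libraries per treatment), H3K4me3 and H3K27me3. Per the file headers, MACS 2.1.2 was run on single libraries with a p-value limit of 0.05 and reads extended to 250 bp. The deposited lists give -log10 p, -log10 q, the fold enrichment over the modelled background and the pileup signal. The headers say that q was not calculated, so counts of enriched peaks rest on the q column as listed. Read shifting for the transposase is not given in the sources used here. Local background was disabled for ATAC-seq, which can raise the fold enrichment near broad open regions.

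From these files, log2(RPKM + 1) was centred on each column's median, and the 500 rows of highest score were taken. Regions overlapped when they shared at least 1 bp. Histone marks were tested with limma 3.58.1 in R 4.3.3 (Benjamini-Hochberg over all regions tested) after dropping regions with a mean RPKM under percentile 5. Both scripts were tested on simulated data. Named were the 10 regions of highest score and the region nearest the threshold on each side, while the 5 on each side were given as ranges. Regions of a mark past an adjusted p of 0.05 were also to be named, but there were 0. A further 3 regions of a mark were named after their values were seen. Python 3.11.15, pandas 2.3.3 and numpy 2.4.6 were used. RPKM columns carry no counts, so their depth is known only from the tags of the peak lists. Alternatives changed the pseudocount, scaling, filter, chromosomes, peak threshold, overlap and libraries. Sequences, motifs and gene lists were not analysed here.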

Additional observations from a re-analysis of the deposited data

Results flagged for a closer look

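Library 1 of 6FAE listed a peak in 348 members, well below the other 5 Forskolin libraries (451 to 497), and its gap to the nearest of them was 0.69 of the whole range, above Dixon's 95% critical value of 0.625 for 6 libraries. Library 1 of C6AE held one of the 20000 strongest peaks in 57 members, against 6 to 24 in the other 7 libraries without Forskolin, with a gap of 0.65 of the range and a critical value of 0.526 for 8 libraries. Chance alone gives such a value in about 1 of 20 groups, and the libraries of a set come from several treatments. The check was made for listed peaks, the 20000 strongest peaks and enriched peaks, in both sets and at both ends. Only these cases passed, so library 1 of 6FAE did not pass with the 20000 strongest or the enriched peaks. Library 2 of C6AE, the other library of that treatment, had the fewest tags and enriched peaks of all ATAC-seq libraries. The part of any of these libraries in the choice of members was not tested, since the merged columns cannot be split.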

How the results depend on the processing

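Of the 500 members, 333 were kept without centring and 296 after dropping the 25% of regions with the lowest mean RPKM, and 206 to 385 when 1 column was left out of the score, with the fewest without C6AE. The median number of members with a listed peak was 489 over the 6 Forskolin libraries and 232 over the 8 others. It was 219 and 15 with the 20000 strongest peaks, 123 and 1.5 with the enriched peaks, and 74 in the 8 others when a peak had to cover 50% of the region. A peak in all Forskolin libraries and in none of the others was found in 11 members with the first library of each treatment alone, 58 with the second alone, 5 without library 1 of 6FAE and 2 with the 20000 strongest peaks. Leaving out 1 library gave 21 to 164 members for the fold enrichment order and 7 to 129 for the 20000 strongest peaks. For the marks, no centring gave 4397 lower and 1 higher H3K4me3 region, 6 of the lower ones at members, and the intensity trend gave 1 higher H3K27me3 region. As deposited, C6FAE minus C6AE was -1.22 for H3K4me3 and -0.56 for H3K27me3. Leaving out each treatment in turn gave 0 calls at the adjusted p for both marks, but it moved the unadjusted counts at members. For H3K4me3, 0 higher regions became 3 without C6AE and 3 without 6FAE. For H3K27me3, 2 higher regions became 7 without 6FAE. The causes of these changes were not tested. The other settings moved none of these counts by more than 1.5 times, but counts at an unadjusted p moved more: for H3K27me3, 295 lower regions became 798 after quantile normalization, 5059 as deposited and 70 without AE, 1162 higher regions became 613 without Basal, and 24 higher regions within 50000 bp of a member became 61 without 6FAE. Chosen after seeing the data were the settings that leave out a single library, the 20000 strongest peaks for a peak in all Forskolin libraries and in none of the others, the regions within 50000 bp of a member, and C6FAE minus C6AE as deposited. No paired analysis was possible because the ATAC-seq columns are merged over their libraries and the ChIP-seq has 1 library per treatment. The planned motif and gene distance alternatives were not run, since no genome of the files' build was used here. Merged columns and single ChIP-seq libraries limit what can be told from these values.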
